A study of Mus musculus with 4 samples.

Results

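A set of 10 RNA-binding proteins that steer alternative splicing in muscle cells were followed at the RNA level: the muscleblind genes Mbnl1, Mbnl2 and Mbnl3, the CELF genes Celf1 and Celf2, the Fox genes Rbfox1 and Rbfox2, the polypyrimidine tract binding genes Ptbp1 and Ptbp2, and Rbm24. They were picked by gene symbol, and each of the 10 symbols matched 1 entry in all 4 libraries, out of 24320 symbols in the total RNA tables and 24438 in the polyA tables. The cells were C2C12, a mouse myoblast line that fuses into multinucleated myotubes once growth medium is replaced by differentiation medium (DM). Total RNA depleted of rRNA came from proliferating myoblasts (MB, DM -24 h) and from myotubes (MT, DM 72 h), and both were untransfected. PolyA RNA came from cells at DM 48 h that had received a control siRNA (si-NC) or an siRNA against the RNA-binding protein hnRNPL (si-hnRNPL). Each condition had 1 library, so the differences below rest on single libraries and were not tested against replicate error. In bulk RNA of this kind a lower share of cells using a gene and less RNA per cell cannot be told apart.

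Alternative splicing changes on a large scale as myoblasts become muscle. PTB proteins bind pyrimidine-rich RNA near an exon and mostly repress its use in undifferentiated cells. MBNL and CELF proteins act on many of the same muscle exons, often in opposite directions, and the loss of MBNL activity underlies the splicing defects of myotonic dystrophy. RBFOX proteins read the element UGCAUG, and RBM24 promotes the inclusion of muscle exons. The loci in mm9, as the files give them, are chr3:60276752-60433670 for Mbnl1, chr14:120674891-120830920 for Mbnl2, chrX:48466671-48559009 for Mbnl3, chr2:90780554-90859654 for Celf1 and chr2:6460744-7317825 for Celf2. Rbfox1 spans chr16:5884886-7412573, the longest of the set, Rbfox2 chr15:76909420-77137483, Ptbp1 chr10:79317177-79327180, the shortest, Ptbp2 chr3:119421660-119486306 and Rbm24 chr13:46513669-46526468. The measurements here are gene levels, so they show how much RNA of each regulator was present and not which exons were used.

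PTBP1 protein is known to repress a short exon in its own RNA and in that of Ptbp2, and leaving the exon out shifts the reading frame and exposes the transcript to decay. The exon is shown here because the levels of Ptbp1 and Ptbp2 diverged between the libraries. In the GENCODE annotation of mm9 the exon is 34 bases long in both genes, a length that leaves a remainder of 1 when divided by 3. It lies at chr10:79324759-79324792 on the plus strand in Ptbp1 and at chr3:119427530-119427563 on the minus strand in Ptbp2. The 60 bases before it (chr10:79324699-79324758 and chr3:119427564-119427623) are given with TCTT, a PTB binding element, in capitals.
Ptbp2, 60 bases upstream: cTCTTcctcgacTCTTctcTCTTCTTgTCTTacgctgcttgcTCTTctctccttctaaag
Ptbp2, exon: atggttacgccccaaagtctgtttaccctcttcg
Ptbp1, 60 bases upstream: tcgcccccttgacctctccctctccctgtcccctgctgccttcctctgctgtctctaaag
Ptbp1, exon: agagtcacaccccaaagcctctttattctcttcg
The Ptbp2 window holds 6 copies of TCTT on the transcribed strand, counted with overlaps, and the Ptbp1 window holds 0. Of 185475 windows of 60 bases before internal exons in the annotation, 53.8% hold at least 1 copy and 150 windows (0.0809%) hold 6 or more. Both windows were pyrimidine-rich, at 81.7% for Ptbp2 and 80.0% for Ptbp1, against a median of 58.3%. The exons were identical at 26 of 34 bases (76.5%) and the windows before them at 19 of 60 (31.7%). The gene-level values do not measure whether either exon was used.

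The promoters of Rbm24 and Ptbp1 are shown because these genes had the greatest rise and the greatest drop of the set, as the 250 bases before the 5'-most annotated start in mm9. Capitals mark E-boxes (CANNTG, a palindromic pattern found on both strands at once). The sites of MyoD and myogenin are among those it matches, and it does not single them out.
Rbm24, chr13:46513419-46513668, plus strand: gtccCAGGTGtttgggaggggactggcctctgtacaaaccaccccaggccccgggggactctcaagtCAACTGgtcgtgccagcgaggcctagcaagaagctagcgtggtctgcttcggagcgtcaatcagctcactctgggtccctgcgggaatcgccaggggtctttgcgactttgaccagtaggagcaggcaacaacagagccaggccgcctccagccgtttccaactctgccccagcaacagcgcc
Ptbp1, chr10:79316922-79317171, plus strand: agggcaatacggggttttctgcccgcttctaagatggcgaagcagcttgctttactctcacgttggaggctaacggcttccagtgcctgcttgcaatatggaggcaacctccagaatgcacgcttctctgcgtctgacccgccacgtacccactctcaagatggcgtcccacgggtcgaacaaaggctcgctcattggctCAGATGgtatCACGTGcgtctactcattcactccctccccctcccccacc
Rbm24 holds 2 E-boxes, starting 246 and 183 bases before the start, and Ptbp1 holds 2, at 50 and 40 bases. Of 22380 annotated promoters of this length, 63.5% hold the pattern, so its presence is common. Across the 10 regulators 6 hold at least 1 E-box and Mbnl2, Celf1, Rbfox2 and Ptbp2 hold none in this window. For Rbfox1 and Celf2 the annotated start lies well inside the locus given in the files, so their windows are not at the outer end of that locus.

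The width of the deposited FPKM intervals implied 59960176 fragments in MB, 54442423 in MT, 21341051 in si-NC and 14592480 in si-hnRNPL. These totals treat the width as counting error alone. The intervals also hold error in assigning fragments, so the totals are not measured library depths. FPKM divides the fragments of a transcript by its length and by the depth of the library, and the range given after a value is its 95% interval, which reflects how well 1 library was counted and nothing beyond that library. Marker genes went with the labels of the cells. The summed FPKM of 5 myotube genes (Myog, Myh3, Acta1, Ckm and Tnnt1) was 15.6 in MB, 1141 in MT, 1569 in si-NC and 2299 in si-hnRNPL. Acta1 was the largest part of the myotube sum, at 479.3 in MT and 1009 in si-NC. Myh3 was also higher in si-NC than in MT, whereas Myog, Ckm and Tnnt1 were lower. The summed FPKM of 5 proliferation genes (Mki67, Top2a, Ccnb1, Cdk1 and Ccna2) was 514.5, 88.8, 214.9 and 154.5 in the same order of libraries. The myogenic genes Myod1, Myf5 and Des summed to 149.1, 275, 493.7 and 550, with Myf5 alone at 13.8 in MB and 13.6 in MT. Adipoq, Plin1, Pecam1, Cdh5, Epcam and Ptprc were at 0.0446 FPKM or less in every library, and the macrophage gene Cd68 was between 0.396 and 1.13. The neuronal genes Snap25, Syt1 and Elavl3 were at 0.163 or less, whereas Stmn2 was at 37.9 in MB and 10.4 in MT. Hnrnpl, the target of the siRNA, was at 111 in MB, 63.0 in MT, 95.1 (92.7 to 97.48) in the si-NC library and 85.9 (83.1 to 88.7) with the siRNA. The library labelled si-hnRNPL thus held 90.4% of the control level of Hnrnpl RNA.

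Between MB and MT 4 of the 10 regulators passed the threshold for a difference. Rbm24 and Celf2 were higher in MT and Ptbp1 and Mbnl3 were lower, by a log2((FPKM + 1) ratio) of at least 0.58 in size, which is the 1.5-fold threshold of the study. The other 6 were on neither side. Among 11432 gene symbols with a mean FPKM of 1 or more, 14.6% were higher and 28.9% lower by the same measure, so 2 of 10 in either direction is near the share of all genes. The median change was 0.05 for the 10 regulators and -0.21 for all genes tested, and the median size of change was 0.49 and 0.50. Relative to the median of all genes, 4 regulators were higher (Rbfox2 and Rbfox1 joined) and 2 lower, where 21% and 19.4% of genes were. On counting error alone, 5 regulators had a change with its whole interval above 0 and 4 had it below. Of all genes tested, 32.9% and 56.7% did, and this depends on how many fragments a gene holds. Of the 10, 9 reached a mean FPKM of 1 and Rbfox1 did not.

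**Figure D1:**
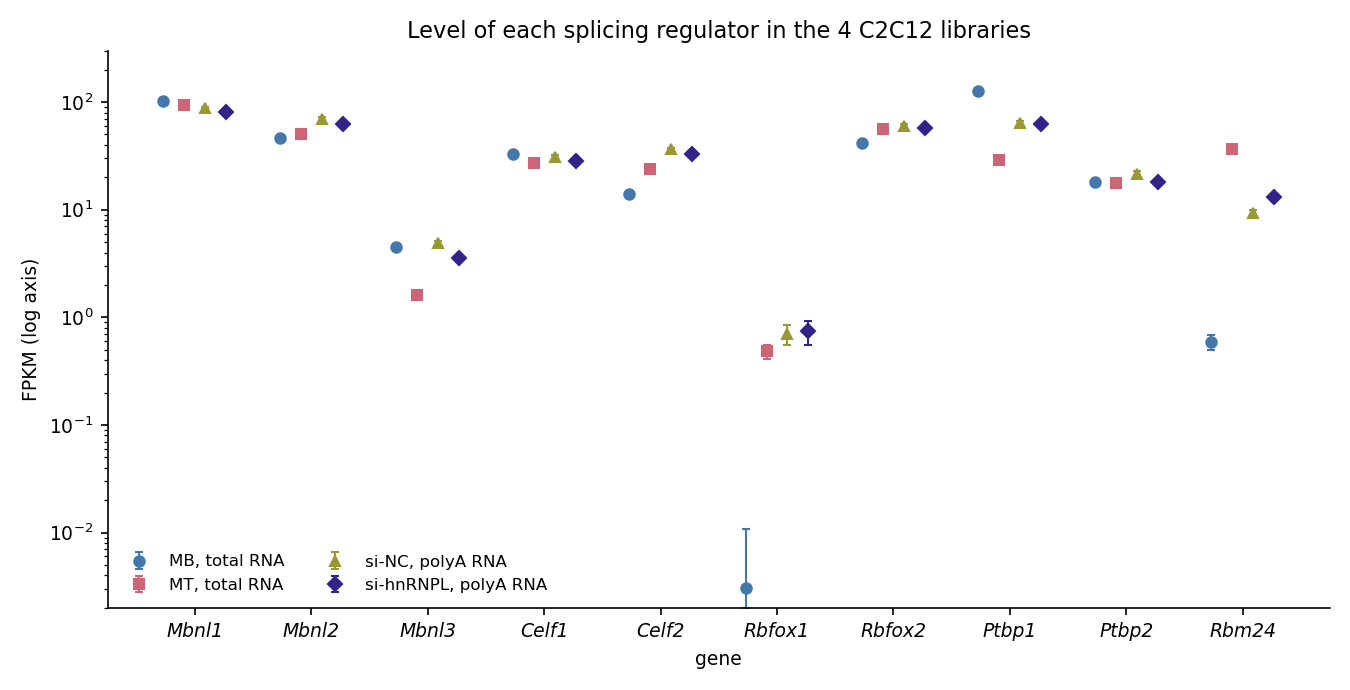
FPKM of the 10 splicing regulators (log axis) in MB and MT total RNA and in si-NC and si-hnRNPL polyA RNA, 1 library each, with bars for the 95% interval of the deposited value (the lower end for Rbfox1 in MB reaches 0 and is drawn at the edge of the axis). Ptbp1 in MT was at 23.0% of its MB level and Rbm24 stood at 0.595 in MB against 36.3 in MT. Rbfox1 was at 0.00307 in MB and 0.483 in MT. Celf2 was 1.70 times higher in MT, and Mbnl3 was at 36.2% of its MB level.

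Rbm24, which binds muscle pre-mRNAs and favours inclusion of muscle exons, had the greatest change of the set on the log2(FPKM + 1) scale. It was at 0.595 FPKM (0.498 to 0.691) in MB, about 151 implied fragments, and at 36.3 (35.6 to 37.0) in MT. In the polyA libraries it was at 9.39 (8.79 to 9.99) in si-NC, and si-hnRNPL held 13.03 (12.2 to 13.9). The MT level was 61.0 times the MB level, a log2 change of 4.55 (4.46 to 4.64), and 0.376% of the genes tested had a greater rise. Its close paralog Rbm38, which controls RNA stability and the cell cycle besides splicing, was at 7.96 in MB, 10.9 in MT, 9.85 in si-NC and 12.9 in si-hnRNPL. Rbm24 therefore made up 6.95% (5.57 to 8.47) of the summed FPKM of the pair in MB and 76.9% (75.6 to 78.2) in MT. In si-NC and si-hnRNPL the shares were 48.8% and 50.2%, with overlapping intervals.

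The profile most like that of Rbm24 was sought by the distance between log2(FPKM + 1) values over the 4 libraries, each gene centred on its own mean, among 11151 genes. Among the 5 nearest were Ccl8 (distance 0.344), the thin filament gene Neb (0.379), the muscle phosphoglycerate mutase gene Pgam2 (0.501) and Cilp (0.553). Neb stood at 0.0573, 27.7, 6.21 and 6.52 FPKM in MB, MT, si-NC and si-hnRNPL. Pgam2 stood at 0.372, 26.0, 9.83 and 14.9. The likeness of these genes to Rbm24 follows from how they were picked.

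Ptbp1, the repressor that keeps muscle and neuronal exons out of mRNA in proliferating cells, was the most abundant of the 10 in MB and moved the other way. It was at 126 FPKM (124 to 127) in MB, 28.9 (28.2 to 29.5) in MT, 63.9 (61.4 to 66.3) in si-NC, and si-hnRNPL held 62.2 (59.5 to 64.9). The MT library held 23.0% of the MB level, a log2 change of -2.08 (-2.12 to -2.05). Ptbp2, its paralog with a large role in neurons, was at 18.1 (17.5 to 18.6) in MB and 17.7 (17.2 to 18.3) in MT, with a log2 change of -0.02 (-0.08 to 0.03), or 0.19 relative to the median of all genes and 0.30 after scaling by the upper quartile. After correction for exon length and GC content the Ptbp2 change was -0.01. As deposited, the MB and MT levels of Ptbp2 lay within counting error of each other, while Ptbp1 was 4.35 times lower in MT. The Ptbp1 to Ptbp2 ratio went from 6.95 in MB to 1.63 in MT, and the share of Ptbp2 in their summed FPKM from 12.6% (12.14 to 13.03) to 38.1% (36.9 to 39.3). The sum of the pair was 143.5 in MB and 46.6 in MT. The pair leaves out Ptbp3, which was at 33.6 in MB and 25.7 in MT. The ratio of Ptbp1 to Rbm24 was 211 in MB, 0.796 in MT, 6.80 in si-NC and 4.77 in si-hnRNPL.

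The genes with the profile most like Ptbp1 were Sfxn1, Stk39, the pyrimidine synthesis gene Cad, the histone methyltransferase gene Suv39h1 and the kinetochore gene Pmf1, at distances of 0.0979 to 0.146. Cad stood at 24.5 FPKM in MB, 4.83 in MT, 12.2 in si-NC and 10.7 with the siRNA against hnRNPL. Its likeness to Ptbp1 follows from how it was picked. The 5 proliferation markers were all lower in MT by log2 changes of -3.08 to -1.93, and the part of this shift in the Ptbp1 difference was not tested.

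**Figure D2:**
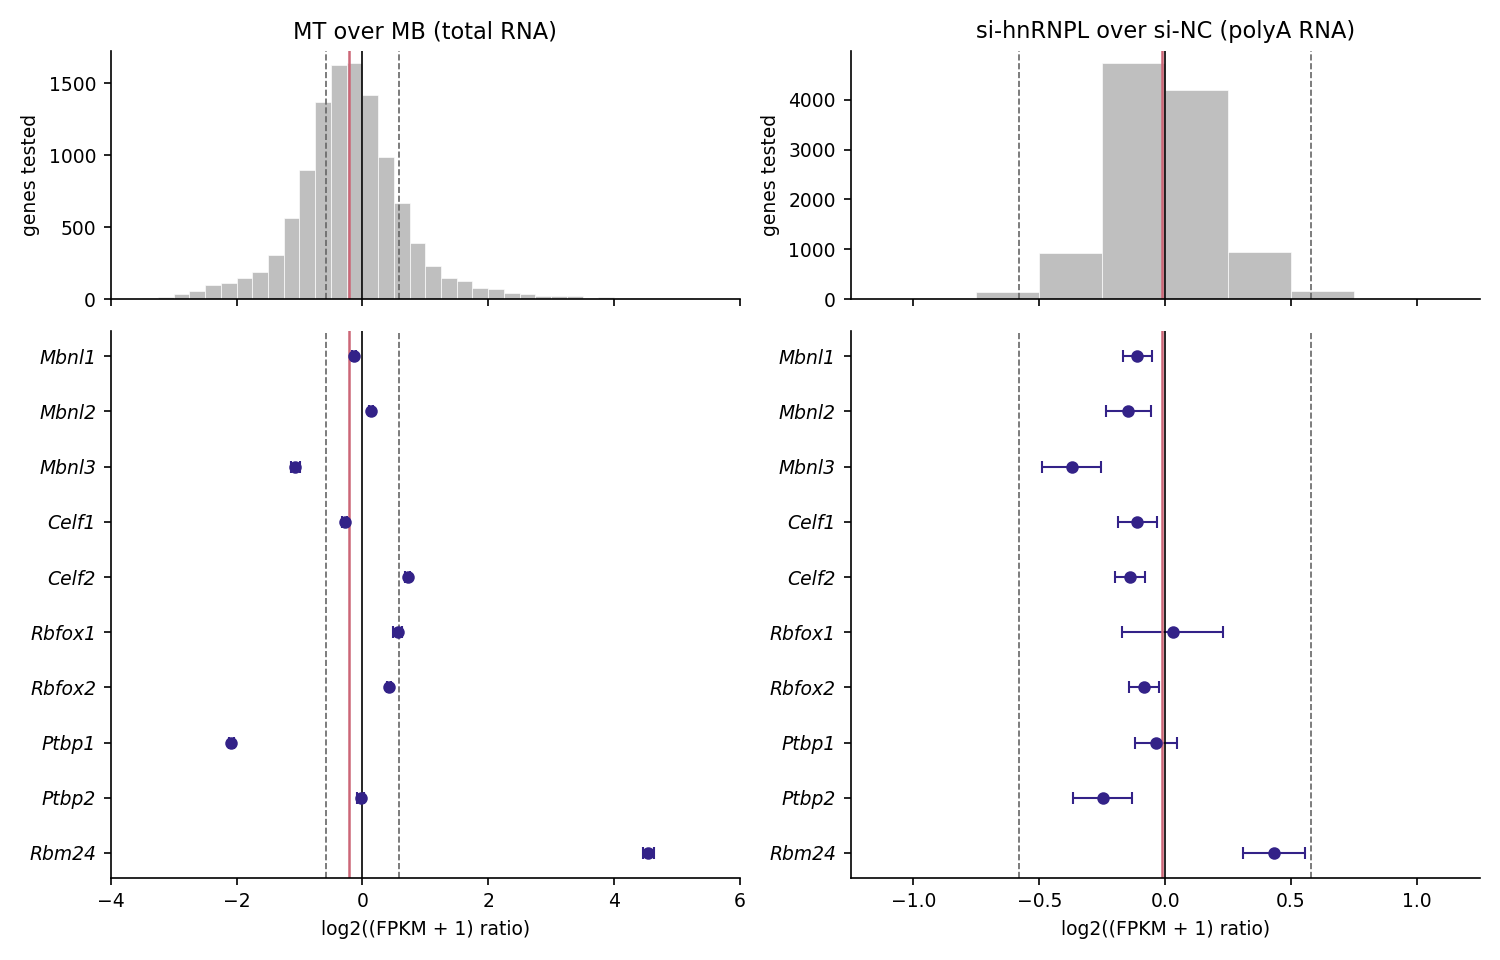
Lower panels show the log2((FPKM + 1) ratio) of each regulator with its 95% counting interval, for MT over MB (left) and si-hnRNPL over si-NC (right). Upper panels count all genes tested, the red line marks their median, dashed lines mark 0.58 in either direction, and genes beyond the axis limits are not drawn. Rbm24 and Ptbp1 stand in the tails of the left histogram, and on the right all 10 lie inside the dashed lines.

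Mbnl1 and Mbnl2 are the main MBNL genes of adult muscle and brain, and Mbnl3 is known mostly from embryonic and regenerating muscle. Mbnl1 was at 102 (100.9 to 103.6) in MB, 93.1 (92.0 to 94.3) in MT, 87.5 (85.1 to 89.9) in si-NC, and si-hnRNPL held 80.9 (78.5 to 83.3). Mbnl2 was at 46.3 (45.5 to 47.1), 50.8 (50.1 to 51.5), 69.4 (66.4 to 72.3) and 62.6 (59.7 to 65.4) in the same order. Both differed between MB and MT by more than counting error but by little, with log2 changes of -0.13 for Mbnl1 and 0.13 for Mbnl2. Mbnl1 turned to 0.08 relative to the median of all genes and to 0.20 after scaling by the upper quartile, and Mbnl2 stayed positive at 0.34 and 0.46. After correction for exon length and GC content Mbnl1 was at -0.17 and Mbnl2 at 0.08. Mbnl3 was at 4.49 (4.33 to 4.65) in MB and 1.63 (1.53 to 1.72) in MT, a log2 change of -1.06 (-1.13 to -0.998). It was the only MBNL gene past the threshold, and it was a small part of the family, at 2.93% of the summed FPKM in MB and 1.12% in MT. The sum of the family was 153.1 in MB and 145.6 in MT.

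The CELF proteins, which act on many MBNL targets in the opposite sense and are high early in muscle development, changed in their balance. Celf1 was at 33.2 (32.6 to 33.8) in MB and 27.2 (26.7 to 27.7) in MT, a log2 change of -0.28 (-0.32 to -0.24). This direction depended on the scaling, with -0.07 relative to the median of all genes and 0.05 after scaling by the upper quartile. After correction for exon length and GC content the Celf1 change was -0.24. Celf2 was at 13.9 (13.6 to 14.3) and 23.7 (23.2 to 24.1), 1.70 times higher in MT, a log2 change of 0.72 (0.68 to 0.76). The sum of the pair was 47.1 in MB and 50.8 in MT, whereas the share of Celf2 was 29.5% (28.7 to 30.4) and 46.5% (45.6 to 47.5). In the polyA libraries Celf2 stood above Celf1, at 36.4 (35.4 to 37.4) against 31.0 (29.9 to 32.2) in si-NC and at 32.95 (31.9 to 34) against 28.7 (27.5 to 29.9) in si-hnRNPL. The MBNL sum was 3.25 times the CELF sum in MB and 2.86 times in MT.

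Rbfox2 supplied nearly all RNA of the RBFOX pair. It was at 41.6 (40.8 to 42.3) in MB, 56.1 (55.2 to 56.9) in MT, 60.3 (58.7 to 62.0) in si-NC, and si-hnRNPL held 56.9 (55.1 to 58.6). The MT level was 1.35 times that in MB, a log2 change of 0.42 (0.39 to 0.46). That is short of 0.58, and it passed relative to the median of all genes (0.63), after scaling by the upper quartile (0.76) and after correction for exon length and GC content (0.60). Rbfox1, the paralog that is abundant in adult muscle, heart and brain, was at 0.00307 (0 to 0.0109) in MB, less than the worth of 1 fragment. It was at 0.483 (0.407 to 0.558) in MT on about 163 implied fragments, 0.703 (0.556 to 0.851) in si-NC, and si-hnRNPL held 0.743 (0.554 to 0.931). No ratio to MB is given, and on the log2(FPKM + 1) scale the difference was 0.56 (0.49 to 0.64), just short of the threshold. With so low a level in MB this depends on the pseudocount, and the difference was 2.50 with 0.1 and 5.24 with 0.01. Even in si-hnRNPL, where its share was highest, Rbfox1 made up 1.29% (0.937 to 1.66) of the pair.

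**Figure D3:**
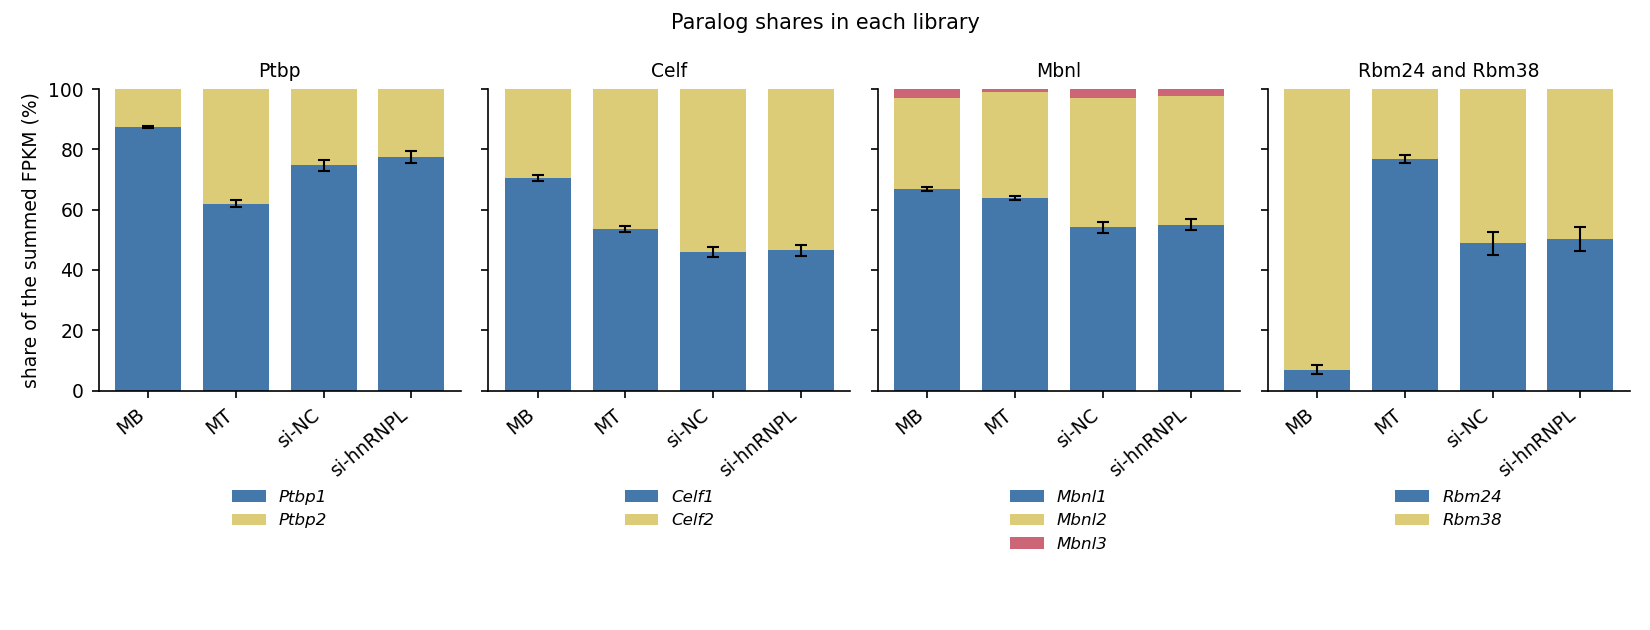
Share of each gene in the summed FPKM (%) of its group in the 4 libraries, with a bar for the 95% counting interval of the lowest segment. The groups are Ptbp1 with Ptbp2, Celf1 with Celf2, Mbnl1 with Mbnl2 and Mbnl3, and Rbm24 with Rbm38. Ptbp3, at 33.6 in MB and 25.7 in MT, is left out. The share of Ptbp2 was 12.6% in MB and 38.1% in MT, that of Celf2 29.5% and 46.5%, and that of Rbm24 6.95% and 76.9%.

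In MB the order of levels was Ptbp1, Mbnl1, Mbnl2, Rbfox2, Celf1, Ptbp2, Celf2, Mbnl3, Rbm24 and Rbfox1. In MT it was Mbnl1, Rbfox2, Mbnl2, Rbm24, Ptbp1, Celf1, Celf2, Ptbp2, Mbnl3 and Rbfox1. In neither library did the intervals of neighbours overlap. Rbm24 moved from rank 9 to rank 4 and Ptbp1 from rank 1 to rank 5. In si-NC the order was Mbnl1, Mbnl2, Ptbp1, Rbfox2, Celf2, Celf1, Ptbp2, Rbm24, Mbnl3 and Rbfox1, with Ptbp1 and Rbfox2 overlapping. The same order held in si-hnRNPL, where Mbnl2 and Ptbp1 overlapped. Set beside the total RNA libraries, si-NC lay between MB and MT for Celf1, Ptbp1 and Rbm24, below both for Mbnl1 and above both for the other 6. Time in DM, transfection and the kind of library differ together there and cannot be told apart, and the tables were normalised separately.

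The total RNA tables also list transcript units assembled from the reads that carry no gene symbol and no strand, a readout outside the gene levels. Such units lay inside 6 of the 10 loci, 139 in all, and 0 of them touched an annotated exon of the regulator. Of the 139, 100 were higher in MT by 0.58 or more (71.9%) and 0 were lower, whereas among 20379 units overlapping any gene symbol 30.1% were higher and 3.02% lower. Units of 1 locus are neighbouring pieces and are not independent, and 62 lay in Celf2 and 44 in Rbfox2. Of the 100 higher ones, 60 lay in Celf2, 23 in Rbfox2, 13 in Celf1 and 4 in Ptbp2. No filter on level was applied. The + 1 tends to keep units far below 1 FPKM, such as those in Mbnl1 and Mbnl3, short of 0.58, so these shares depend on level. Mbnl2, Rbfox1, Ptbp1 and Rbm24 held 0 units. The nuclear RNAs Malat1, Neat1 and Xist were higher in MT as well, with log2 changes of 1.96, 1.70 and 1.40, and their part in these values was not tested.

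In Celf2 the units were higher in MT by far more than the gene. Weighted by length, their mean FPKM was 0.827 in MB and 5.83 in MT, a ratio of 7.05 against 1.70 for the gene itself. Among 1343 genes with 4 or more units inside, the median ratio was 1.84 and 4.47% had a higher ratio than Celf2. The units did not spread over the whole locus. In the intron that follows the annotated start 208.7 kb downstream of the outermost, 53 units over 39517 bases averaged 0.857 in MB and 6.09 in MT, and all 53 were higher by log2 changes of 1.46 to 2.87. A further 2 units sat just upstream of that start, and 5 near the 3' end, with ratios of 4.73 and 6.91. The remaining 2, upstream of the outermost start in the annotation, averaged 0.166 in MB and 0.172 in MT.

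**Figure D4:**
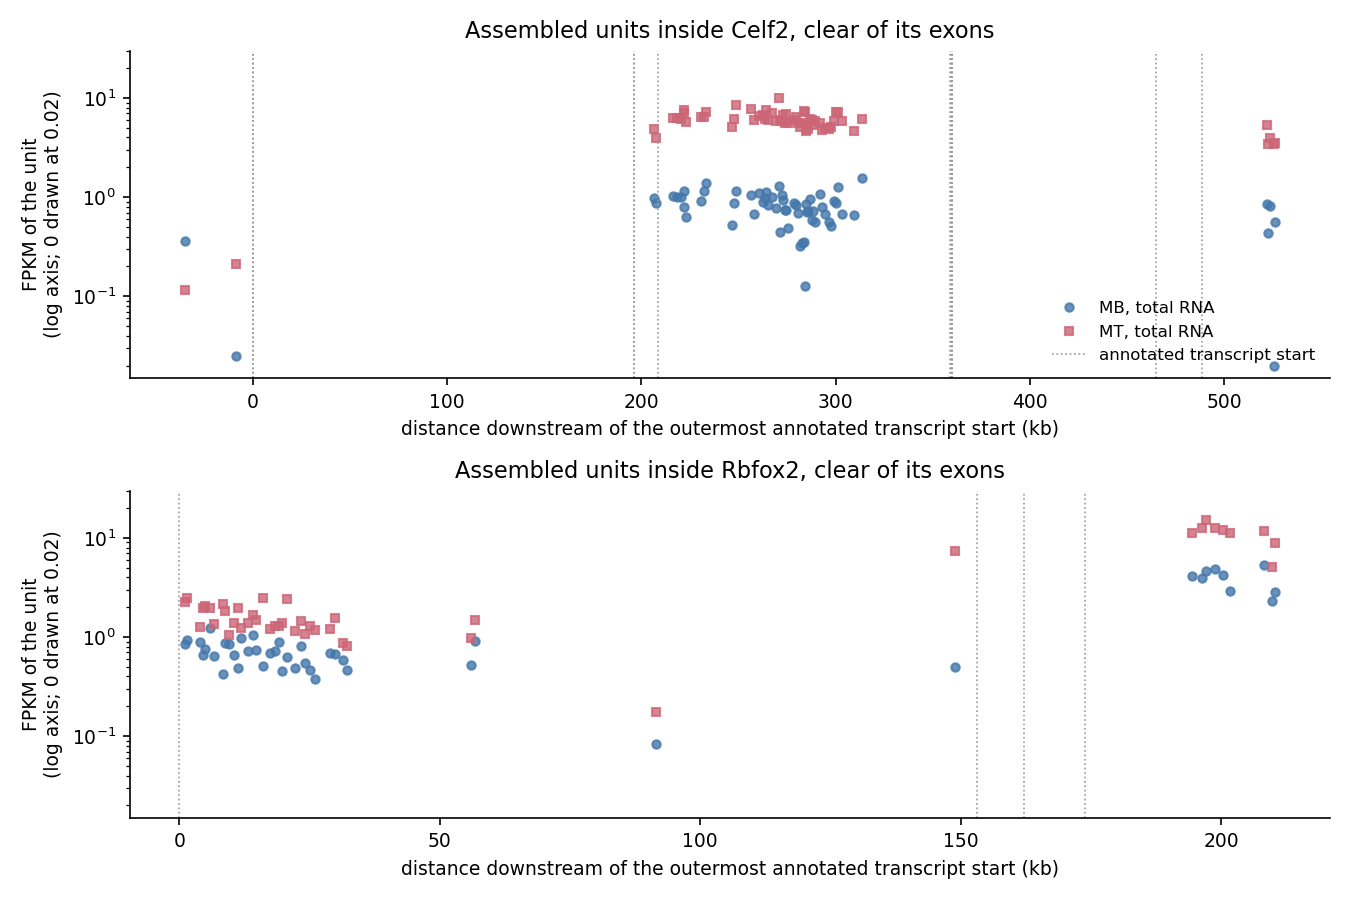
FPKM of each assembled unit (log axis) in MB and MT by its distance in kb from the outermost annotated transcript start of Celf2 (upper) and Rbfox2 (lower), with dotted lines at the annotated starts. The 53 Celf2 units in the long intron downstream of the start at 208.7 kb were all higher in MT, and in Rbfox2 the 9 units beyond the last internal start averaged 10.7 in MT against 1.45 for the 33 units of the outermost intron.

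Rbfox2 showed 2 blocks of units with different levels, a division made after the values were seen. In the outermost intron 33 units averaged 0.684 in MB and 1.45 in MT, a ratio of 2.12. Downstream of every annotated start 9 units averaged 3.83 and 10.7, a ratio of 2.80. Levels in the downstream block were above those of the outermost intron in both libraries. The next intron held 2 more units. The unit 91.4 kb downstream of the outermost start was at 0.0835 in MB and 0.177 in MT. The unit at 148.9 kb lay just before the first internal start at 153.2 kb. That unit was at 0.496 in MB and 7.44 in MT, about 24 and 379 implied fragments.

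Units in Ptbp2 and Celf1 were higher in MT while the deposited gene level was flat or lower. The 4 Ptbp2 units lay in a single intron and averaged 1.94 in MB and 6.34 in MT, a ratio of 3.27, while the gene was at 0.983 of its MB level. The 14 Celf1 units averaged 1.13 and 2.96, a ratio of 2.62, while the gene was at 0.819. In Mbnl1 6 units averaged 0.118 and 0.354, a ratio of 3.01 at a very low level. In Mbnl3 9 units averaged 0.204 and 0.216, a ratio of 1.06, while the gene was at 0.362 of its MB level. Over the 1343 genes the log2 ratio of the units' mean FPKM exceeded the gene's log2((FPKM + 1) ratio) by a median of 0.89. The excess was 2.09 in Celf2, 1.73 in Ptbp2, 1.72 in Mbnl1, 1.67 in Celf1, 1.15 in Mbnl3 and 1.02 in Rbfox2, and 6.25%, 12.2%, 12.4%, 13.4%, 34.1% and 42.9% of genes had a greater excess.

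**Figure D5:**
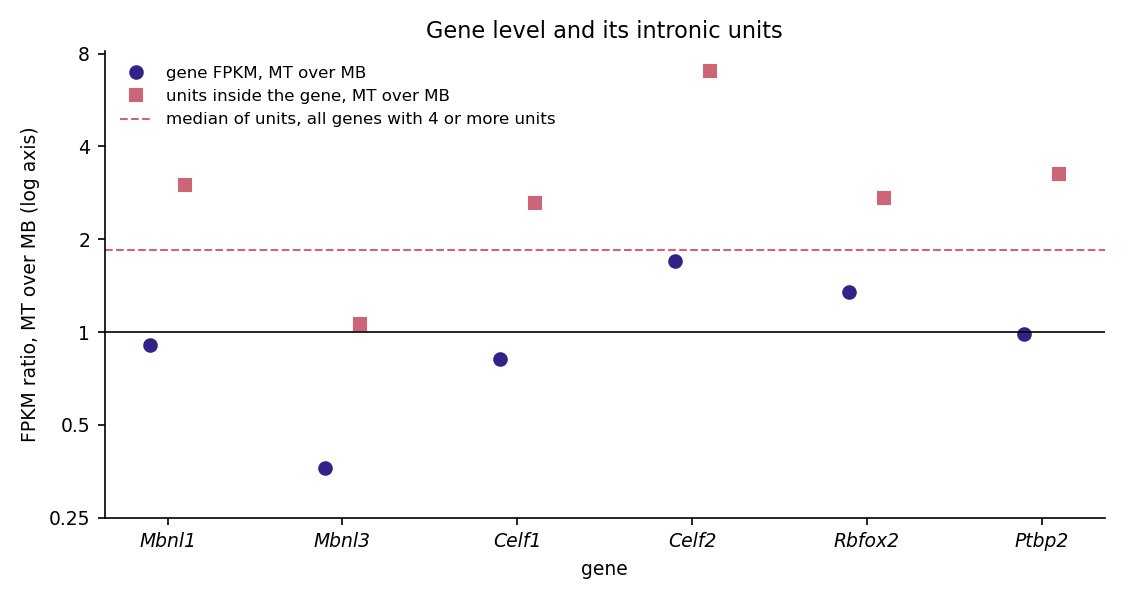
FPKM ratio of MT over MB (log axis) for the gene and for the length-weighted mean of the assembled units inside it, for the 6 regulators that held units; the dashed line is the median unit ratio of 1.84 over 1343 genes. The unit ratio was above the gene ratio in all 6, from 1.06 in Mbnl3 to 7.05 in Celf2.

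Other genes of the same machinery were counted in lists. The shares of all genes tested were 14.6% higher and 28.9% lower in MT, with a median log2 change of -0.21. Of 9 paralogs and partners, 3 of which reached a mean FPKM of 1, 0 were higher in MT and 2 lower, with a median log2 change of -0.02. The lower ones were Raver1, a PTB cofactor, from 19.0 to 8.50 FPKM (-1.07), and Celf4 from 1.40 to 0.512 (-0.67), which did not reach a mean FPKM of 1. Ptbp3, the third PTB gene, was at 33.6 in MB and 25.7 in MT. Of 17 other splicing regulators, 12 of which reached a mean FPKM of 1, 1 was higher and 5 lower, with a median of 0.03. The genes called were all among those 12. The shares of all genes cover only genes at that level, so 5 of 17 cannot be set directly beside them. Qk, which encodes the quaking protein, was at 56.2 in MB and 96.8 in MT (0.77). The lower ones were Rbpms2 (-1.48), Khsrp (-1.06), Khdrbs1 (-0.78), Tial1 (-0.75) and Elavl1 (-0.72).

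Of 22 genes whose transcripts carry exons known to be regulated in muscle, 13 were higher in MT and 2 lower, with a median of 0.74, where 14.6% and 28.9% of all genes were higher and lower and the median was -0.21. The greatest differences were those of the fast troponin T gene Tnnt3 (7.52), the sarcoplasmic calcium pump gene Atp2a1 (5.73), Ttn (4.93), Cacna1s (3.42) and Ryr1 (3.04). Actn1 was at 105.5 in MB and 47.8 in MT (-1.13) and Pkm at 662 and 363 (-0.87). Many of these are muscle structural genes that mark the myotube itself. Their exon usage was not analysed here.

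When hnRNPL was targeted, 0 of the 10 regulators passed 0.58 in either direction, where 1.22% of 11194 genes were higher and 0.867% lower. Hnrnpl RNA did not pass either, at 90.4% of its si-NC level and a log2 change of -0.14 (-0.20 to -0.09). The paper examined the knockdown of the protein by Western blot, and protein was not measured in these libraries. The response to a stronger loss of Hnrnpl RNA was therefore not tested. The changes of the 10 regulators ran from -0.37 to 0.43. Their median was -0.11 against -0.01 for all genes, and the median size was 0.13 for both. Beyond counting error 1 regulator was higher and 7 were lower, with a whole interval above or below 0. Of all genes tested, 20.8% and 26.9% were. Whether an interval clears 0 depends on how many fragments a gene holds, so these shares cannot be set directly beside each other.

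Rbm24 was the regulator with the greatest rise, from 9.39 in si-NC to 13.03 in si-hnRNPL, 1.39 times and a log2 change of 0.43 (0.31 to 0.56), and 2.88% of genes rose more. Rbm38 was higher too, at 9.85 and 12.9 (0.36, interval 0.19 to 0.53). In the same direction, all 5 myotube markers were higher, with Acta1 and Ckm past the threshold at 0.61 and 0.71 and a median of 0.51. All 5 proliferation markers were lower, with Mki67 and Top2a past it at -0.62 and -0.60 and a median of -0.46. The part of this shift in the Rbm24 difference was not tested.

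The regulators that were lower differed by little. Mbnl3 had the largest drop, from 4.86 (4.56 to 5.15) to 3.53 (3.24 to 3.82), which is 72.6% of the control and a log2 change of -0.37 (-0.49 to -0.26). Ptbp2 went from 21.7 (20.5 to 22.9) to 18.1 (16.9 to 19.3), a log2 change of -0.25 (-0.36 to -0.13). Mbnl1, Mbnl2, Celf1, Celf2 and Rbfox2 had changes of -0.15 to -0.08 with intervals that ended below 0. Ptbp1 (-0.04, interval -0.12 to 0.05) and Rbfox1 (0.03, interval -0.17 to 0.23) were within counting error of no difference.

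The classes of genes with the greatest total exon length and with the lowest GC content had negative medians in si-hnRNPL, and several of these regulators fall in them. The median change of the length class of each regulator with a value ran from -0.13 to -0.01, and genes as low in GC content as Mbnl1 (39.4% GC) had a median of -0.14. After the medians of like length and GC content were subtracted, Mbnl2 was at 0.00, Celf1 at 0.05, Celf2 at 0.06 and Rbfox2 at -0.01. Mbnl1 was then at 0.05, Mbnl3 at -0.14, Ptbp2 at -0.14 and Rbm24 at 0.43. The part of length and GC content in these differences was not tested. Of the lists, 0 of the 9 paralogs and partners, 0 of the 17 other splicing regulators and 0 of the 22 genes with regulated exons passed 0.58 in either direction, with medians of -0.05, -0.03 and 0.11. At 1.22% and 0.867% of all genes, counts of 0 in lists of this length are near the background.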

How the data were processed

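The authors trimmed adapters and low-quality bases, kept reads of at least 36 bp, aligned them to mm9 with TopHat and estimated abundance with Cufflinks. The deposited values are FPKM with the lower and upper bound of a 95% interval. The 4 libraries are MB and MT total RNA and si-NC and si-hnRNPL polyA RNA, 1 per condition, so no test of a condition was possible. The 10 genes were matched by symbol in the deposited tables, and entries with the same symbol were summed.

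Changes were computed as log2((FPKM + 1) ratio), which understates the change of genes at low FPKM. Their intervals combine the half-widths of both libraries on that scale. The implied number of fragments is (2 x FPKM / (upper bound - FPKM)) squared. A gene was counted as higher or lower at 0.58, and all symbols with a mean FPKM of 1 or more over both libraries gave the background. Assembled units were assigned by an overlap of 1 bp or more with a gene's locus. Their length-weighted mean, and their place between GENCODE exons and starts, were chosen after the values were seen. The text names the 10 genes, Hnrnpl, the markers, up to 5 members of each list in either direction past the threshold and the 5 nearest profiles of Rbm24 and Ptbp1, and it also gives Ptbp3 and Rbm38 as paralogs, chosen after their values were seen. Not every gene that this rule selects is reported here. The members and lists were chosen with earlier results of these data known. Sequences were read from the mm9 genome at GENCODE coordinates. Alternatives were other pseudocounts, thresholds, scalings and filters and a correction for exon length and GC content. Python 3.11.15, numpy 2.4.6, pandas 2.3.3 and matplotlib 3.10.9 were used, and the scripts were tested on simulated data.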

Additional observations from a re-analysis of the deposited data

How the results depend on the processing

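For the 10 regulators, 2 were higher and 2 lower in MT by the main measure. After centring on the median of all genes 4 were higher, and after scaling by the upper quartile 4 were higher. At a log2 threshold of 1 only Rbm24 was (1), and with the whole counting interval past 0 in place of the threshold 5 were higher and 4 lower. In si-hnRNPL the same change of rule gave 1 higher and 7 lower in place of 0 and 0. Among paralogs and partners, 1 was higher in MT with a pseudocount of 0.1, and after centring 1 was higher and 1 lower. Among other splicing regulators, 2 were higher with a pseudocount of 0.1, and after centring 3 were higher and 2 lower. The other counts stayed within 1.5 times of their main value. With a pseudocount of 0.1 or 0.01 Rbfox1 passed the threshold as well, which made 3 higher. Mbnl1 and Celf1, lower as deposited, turned to 0.20 and 0.05 after scaling by the upper quartile. They stayed lower, at -0.17 and -0.24, after the correction for exon length and GC content. Taking the entry with the highest mean FPKM in place of a sum changed 0 of 20 single-gene changes. That outcome was fixed in advance, because each regulator matched 1 entry per library. The correction for exon length and GC content could not be made for Rbfox1, and it moved 14 of 18 changes by more than their counting error. No paired analysis was possible because there is 1 library per condition. No library could be left out for the same reason. Depth limits Rbfox1 most, at under 1 implied fragment in MB, and Rbm24 in MB next, at about 151.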
